A study of Homo sapiens with 6 samples.

Results

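The genes described here are 41 genes of macroautophagy, found by their symbols among the 25445 rows of a count table. They were grouped by the step they serve, in 8 groups. The table was made from 6 RNA-seq libraries of MHCC-97H, a line of human hepatocellular carcinoma cells. There were 3 libraries of cells given compound 6j at 10 μM for 16 h, and 3 of cells that received the solvent for the same time (non-treated, marked control in the plots). Compound 6j was made from sophoridine, an alkaloid of plants. The cells carried no labelled genetic change, and both groups were grown in DMEM with fetal bovine serum. Libraries are numbered 1 to 3 within each group, and nothing in the labels says whether they came from separate cultures, so p-values measure the spread between these libraries, which may be technical.

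Macroautophagy encloses cytoplasm in a double membrane that fuses with the lysosome. The ULK1 kinase complex starts the process, a class III phosphatidylinositol 3-kinase complex marks the site with a lipid, and ATG9 vesicles and the ATG2 and WIPI proteins bring membrane. A pair of ubiquitin-like conjugation systems then attaches ATG8 proteins (the LC3 and GABARAP families) to the membrane, and cargo receptors bridge ubiquitinated or damaged cargo to them. In liver, autophagy turns over mitochondria, lipid droplets and protein aggregates, and loss of it is known to leave the receptor p62 (SQSTM1) in excess. Transcript levels do not measure the rate of the process, since LC3 and p62 are themselves degraded by it.

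The libraries held 31533403 to 38018349 counts. The libraries of 6j treated cells differed from those of non-treated cells in the share of counts on the 13 rows of mitochondrially encoded genes, which was 2.65% to 3.46% against 3.83% to 4.86%. Of 9 genes that mark hepatocytes, 8 were under 1 CPM (counts per 1000000 of the TMM-normalized library size) in every library, ALB and AFP among them, and TTR and GPC3 were at 0 counts. Their summed level was 0.546 to 1.301 CPM in non-treated and 0.989 to 1.66 CPM in 6j treated cells. The epithelial keratin genes KRT8 and KRT18 were well expressed. Summed with EPCAM and CDH1 they were at 904 to 1109 CPM in non-treated and 705 to 823 CPM in 6j treated cells. The other 2 of these 4 epithelial markers were low, with EPCAM at 0 counts and CDH1 under 1 CPM in every library. Of 4 leukocyte markers 3 were at 0 counts, and the list summed to 39.8 to 70.5 against 41.8 to 52.1 CPM, all of it CD68. Of 4 endothelial markers 3 were under 1 CPM (sums 2.18 to 6.25 against 1.86 to 4.03 CPM). Of 4 fibroblast markers 2 were under 1 CPM in every library, COL1A2 at 0 counts and DCN. The list summed to 222 to 282 against 208 to 276 CPM, nearly all of it COL1A1. The part of the mitochondrial share and of the keratin level in the results below was not tested.

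Of the 41 autophagy genes, 40 passed the filter on low counts, and their counts ranged from 290 to 45812 in a library. Differences were tested with edgeR over all 15957 rows, and a gene passed at a Benjamini-Hochberg adjusted p under 0.05. In 6j treated cells 10 of the 40 rose and 0 fell, that is 25.0% of them against 4.79% of all rows that were higher and 4.37% that were lower. All rows include genes with lower counts than these 40, so the shares are not matched for level. With a filter at 1 CPM 11 of the 40 and 6.11% of the rows were higher, and over Ensembl genes alone 12 and 6.06%. At an unadjusted p under 0.05, 18 of the 40 were higher in edgeR (45.0%, against 13.1% of all rows) and 2, AMBRA1 and ATG7, were lower (5.0%, against 13.0%). DESeq2 called 12 higher and 0 lower, against 8.22% and 8.01% of all rows. The genes that rose were ULK1, RB1CC1, ATG14, WIPI1, ATG2A, MAP1LC3B, SQSTM1, OPTN, CALCOCO2 and FOXO3. For 7 of them the fold change was also above 1.5, the size the study asked of a differentially expressed gene (DEG), which was 17.5% of the 40 against 2.48% of all rows. The median log2 fold change was 0.19 over the 40 genes and 0.00 over all rows. In bulk libraries, a change in a few cells and a change in every cell cannot be told apart.

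Libraries of the 2 groups that carry the same number deviated together weakly (correlations of 0.171 to 0.312), so a second edgeR fit used the replicate number as a block. Whether the numbers mark true pairs is not known. With the block 19 of the 40 genes were higher (47.5%, against 13.1% of all rows) and 1, AMBRA1, was lower (13.9% of all rows were), and the 10 genes named above were among the 19. The number of calls varied with the library left out. It was 3 when non-treated replicate 1 was left out, 3 when 6j replicate 2 was and 6 when non-treated replicate 3 was. Calls fell over all rows too, where 0.852%, 0.933% and 2.22% were then higher. Without non-treated replicate 2, 6j replicate 3 or 6j replicate 1 it was 7, 7 and 12, and 2.8%, 3.61% and 5.07% of all rows were higher. ULK1, WIPI1 and ATG2A were the 3 genes that passed whichever of the 6 libraries was left out.

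**Figure D1:**
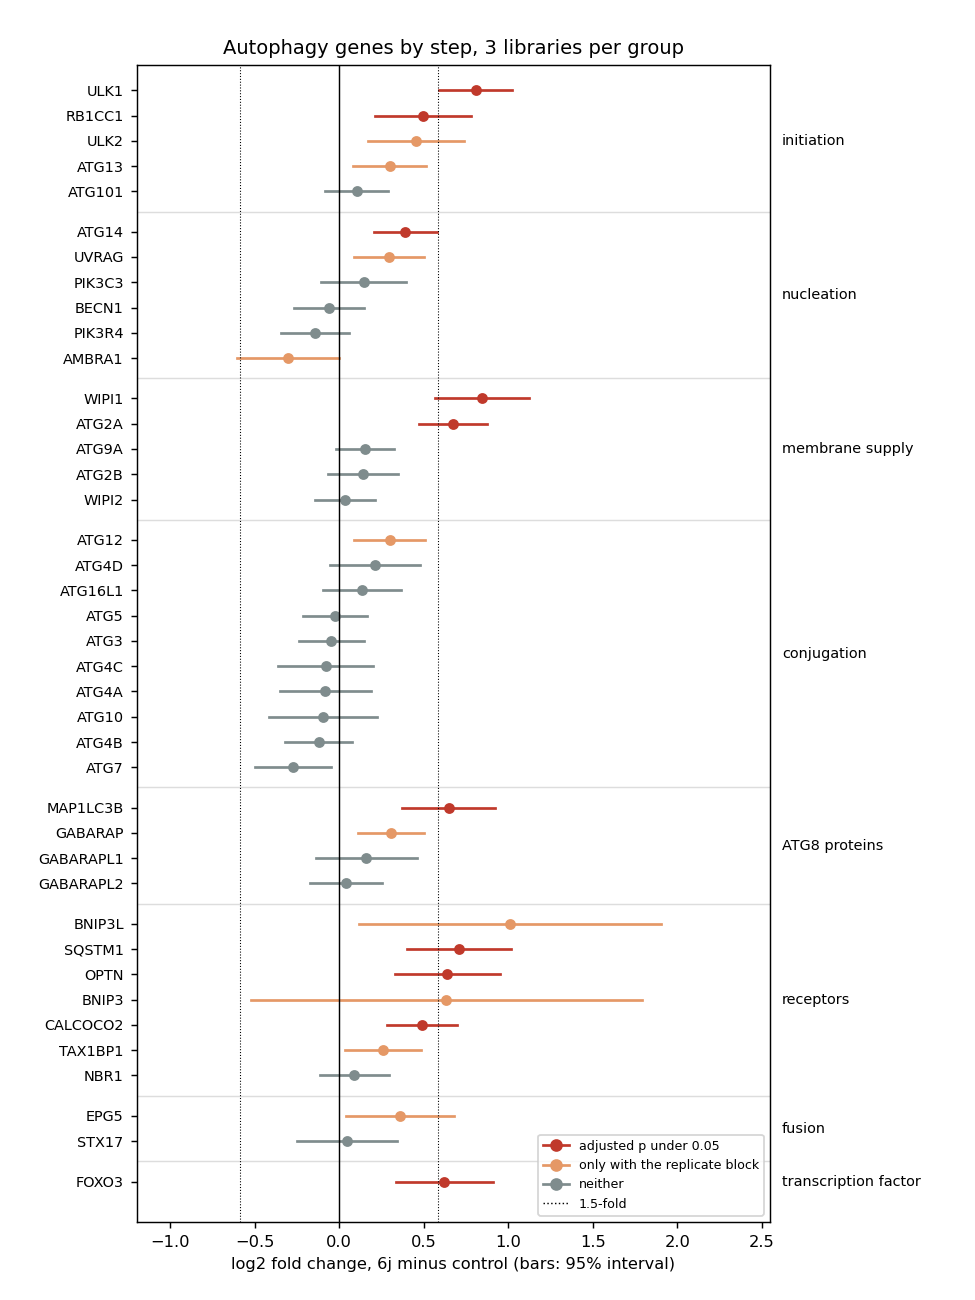
The horizontal axis gives the log2 fold change of 6j treated against non-treated cells with its 95% interval, for the 40 genes tested, ordered by step. Red marks the 10 genes that passed in the edgeR fit without the block and orange the further 10 that passed in the fit with it, and dotted lines mark a 1.5-fold change. The red points lie in every group except conjugation and fusion.

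For the starting complex, 4 of the 5 genes had groups of libraries that did not overlap, all higher in 6j treated cells (16.0% of all rows were). ULK1 encodes the kinase that starts autophagy (chromosome 12, 131894651 to 131923167). Its level was 142, 151 and 134 CPM in the non-treated libraries 1, 2 and 3 and 220.5, 268 and 259 CPM in those of 6j treated cells. All 3 treated libraries lay far above the non-treated ones. The means were 142 ± 8.40 and 249 ± 25.1 CPM (SD, n = 3 each) and the log2 fold change was 0.81 ± 0.10 (SE, edgeR adjusted p = 0.0036), or 1.75-fold. RB1CC1, which encodes the scaffold FIP200 of the complex (chromosome 8, 52622456 to 52745843), was at 178, 174 and 212 CPM in non-treated and 219.8, 282 and 294 CPM in 6j treated cells. The lowest treated library lay just above the highest non-treated one. Its log2 fold change was 0.50 ± 0.13 (SE, edgeR adjusted p = 0.042), which is under 1.5-fold. RB1CC1 did not pass without non-treated replicate 1 (adjusted p = 0.167) or 2 (0.125) and not without 6j replicate 2 (0.163) or 3 (0.09).

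The other 3 genes of this complex did not pass in the edgeR fit without the block. ULK2, the paralog of ULK1, was at 13.6, 15.5 and 12.4 CPM in non-treated and 18.2, 20.3 and 18.3 CPM in 6j treated cells, a log2 fold change of 0.45. The groups did not overlap, and the adjusted p was 0.0567 in edgeR, 0.0247 in DESeq2 and 0.00724 with the replicate block. It also passed in edgeR with a filter at 1 CPM (0.0489) and over Ensembl genes alone (0.0454). ATG13, the adaptor between kinase and scaffold, was at 70.2, 80.5 and 73.9 CPM in non-treated and 88.9, 102 and 84.7 CPM in 6j treated cells. The log2 fold change of 0.30 passed only with the block (edgeR adjusted p = 0.0862 without it and 0.00422 with it). ATG101, which stabilises ATG13, was at 51.6, 49.4 and 46.8 CPM in non-treated and 54.5, 53.4 and 50.9 CPM in 6j treated cells. Its groups overlapped, and the 95% interval of its log2 fold change was −0.08 to 0.29. Per kilobase of exon, the ULK1 level was 26.8 CPM and that of ULK2 was 2.21 CPM in non-treated cells.

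Nucleation of the membrane was less uniform, with 3 of the 6 fitted changes above 0 and 3 below. The gene that rose was ATG14 (chromosome 14, 55366392 to 55411858), the subunit that directs the lipid kinase to the site of autophagosome formation. It was at 36.5, 37.4 and 36.7 CPM in non-treated and 46.3, 48.1 and 50.5 CPM in 6j treated cells. The spread within groups was small and the groups were well apart. This is a log2 fold change of 0.39 ± 0.08 (SE, edgeR adjusted p = 0.0221), or 1.31-fold. It passed in 1 of the 6 fits that left out 1 library, the one without 6j replicate 1, and the adjusted p of the others lay between 0.0502 (6j replicate 3 left out) and 0.103 (non-treated replicate 1 left out).

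UVRAG, the subunit that takes the place of ATG14 in a second complex acting at endosomes (32.8, 32.1 and 32.2 against 39.3, 42.8 and 37.0 CPM), passed only with the block (log2 fold change 0.29, adjusted p = 0.0774 without it and 0.0207 with it in edgeR). AMBRA1, a positive regulator of this complex, was at 51.0, 53.5 and 43.2 CPM in non-treated and 47.3, 37.8 and 34.6 CPM in 6j treated cells. It was the only autophagy gene of the 40 that was lower with the block (log2 fold change −0.31, adjusted p = 0.0191 in edgeR). Without the block it did not pass (−0.30, adjusted p = 0.187), and its groups overlapped. PIK3C3, the kinase itself, was at 51.5, 50.4 and 53.9 CPM in non-treated and 50.6, 54.5 and 67.2 CPM in 6j treated cells, and its regulatory subunit PIK3R4 at 56.6, 54.1 and 51.2 against 50.7, 51.2 and 44.7 CPM. The groups of both overlapped. The core subunits BECN1, PIK3C3 and PIK3R4 gave log2 fold changes of −0.06, 0.14 and −0.14, did not pass in either fit and had 95% intervals within −0.35 to 0.40.

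Of the genes for membrane supply, WIPI1 and ATG2A rose while their paralogs did not pass. WIPI1 (chromosome 17, 68420948 to 68457513) encodes a reader of the lipid mark. It was at 15.9, 15.5 and 16.2 CPM in non-treated and 26.1, 33.2 and 26.1 CPM in 6j treated cells. The non-treated libraries were close together and 6j replicate 2 was the highest. The log2 fold change of 0.84 ± 0.12 (SE, edgeR adjusted p = 0.00758) was the largest of the 10 genes that rose. ATG2A, a lipid transfer protein gene (chromosome 11, 64894546 to 64917248), was at 65.6, 67.0 and 55.5 CPM in non-treated and 98.4, 101 and 100.0 CPM in 6j treated cells. Its treated libraries differed little from each other. The fitted log2 fold change was 0.67 ± 0.09 (SE, edgeR adjusted p = 0.00573), or 1.59-fold. For WIPI2, the other reader, the log2 fold change was 0.03 (95% interval −0.15 to 0.21), for ATG2B it was 0.14 (−0.06 to 0.35) and for the scramblase gene ATG9A it was 0.15 (−0.02 to 0.32), with groups that did not overlap in the case of ATG9A alone. Of these, ATG9A was at 103, 102 and 93.9 CPM in non-treated and 108, 111 and 113 CPM in 6j treated cells, and ATG2B at 55.4, 54.1 and 58.8 against 55.9, 67.2 and 62.6 CPM. WIPI1 shares exon bases with ARSG on the opposite strand, which was not called (log2 fold change 0.34, adjusted p = 0.112 in edgeR). ATG2B shares them with GSKIP on the opposite strand (0.18, edgeR adjusted p = 0.373). ATG9A shares them with AC068946.2 on the same strand (0.13, edgeR adjusted p = 0.746). Whether the counting used the strand is not given in the sources used here.

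**Figure D2:**
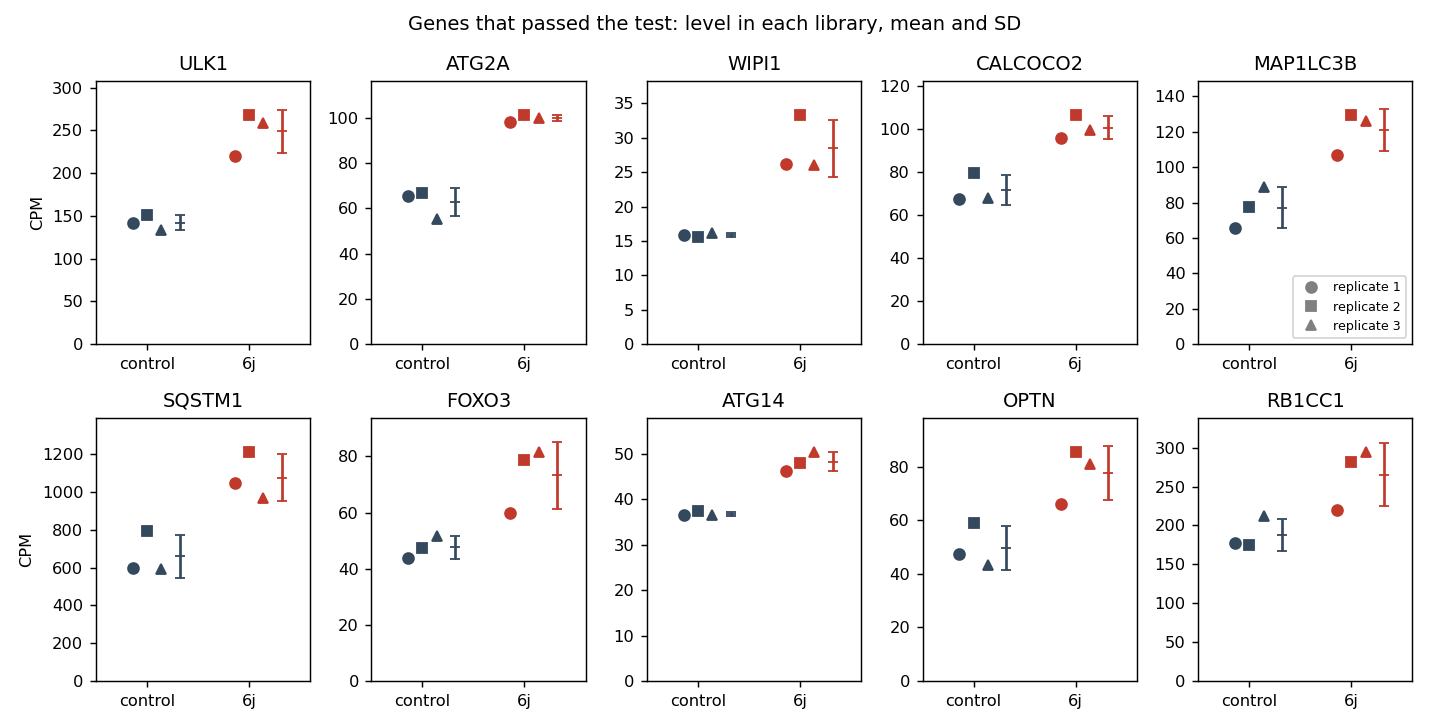
Each panel shows the level in CPM of 1 of the 10 genes that passed, with a point for each library, shaped by replicate number, and the mean with its SD beside the points. In all 10 panels the 3 libraries of 6j treated cells lie above the 3 of non-treated cells, and ULK1 goes from a mean of 142 to 249 CPM.

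Of the 10 genes of the conjugation systems 0 were called higher and 0 lower in edgeR (4.79% and 4.37% of all rows were), and 1 was higher with the block (10.0%, against 13.1% of all rows). At an unadjusted p under 0.05, 2 of the 10 (ATG7 and ATG12) passed in edgeR (20.0%, against 26.2% of all rows), and DESeq2 called 0. These shares are near those of all rows. Their median log2 fold change was −0.06, with 3 fitted changes above 0 and 7 below, from −0.27 to 0.30. ATG12, the ubiquitin-like protein that is joined to ATG5, was at 36.3, 37.4 and 37.1 CPM in non-treated and 41.04, 48.7 and 46.4 CPM in 6j treated cells. The groups did not overlap, and its log2 fold change of 0.30 passed with the block (edgeR adjusted p = 0.079 without it and 0.0153 with it). It also passed without 6j replicate 1 (adjusted p = 0.041). ATG12 shares exon bases with AP3S1 on the opposite strand (log2 fold change 0.21, edgeR adjusted p = 0.235). ATG7, the E1-like enzyme that activates both ATG12 and the ATG8 proteins, was at 25.6, 26.8 and 28.2 CPM in non-treated and 22.9, 22.9 and 20.7 CPM in 6j treated cells. All treated libraries lay below the non-treated ones, but the log2 fold change of −0.27 did not pass (adjusted p = 0.118 in edgeR and 0.0531 with the block). ATG4B was also lower without overlap, at 33.9, 34.0 and 31.7 CPM in non-treated and 30.4, 29.8 and 31.3 CPM in 6j treated cells. Groups without overlap were thus 2 of the 10 in each direction (20.0%, against 16.0% of all rows higher and 15.8% lower). ATG7 and ATG4B share exon bases with VGLL4 and THAP4 on the opposite strand, which did not pass. ATG4D was at 16.3, 16.8 and 15.7 CPM in non-treated and 21.1, 18.2 and 17.2 CPM in 6j treated cells, again without overlap, and it shares exon bases with KRI1 on the opposite strand (log2 fold change −0.34, edgeR adjusted p = 0.0328). The proteases that trim ATG8 proteins (ATG4A to ATG4D), the E2-like enzymes ATG3 and ATG10, and the complex partners ATG5 and ATG16L1 gave log2 fold changes from −0.12 (ATG4B) to 0.21 (ATG4D), and the 95% intervals of these 8 genes lay within −0.41 to 0.48.

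Within the ATG8 family MAP1LC3B, the gene for LC3B (chromosome 16, 87383995 to 87404779), rose, and GABARAP passed with the block. Its level was 65.7, 77.3 and 88.6 CPM in non-treated and 107, 129 and 126 CPM in 6j treated cells. The groups were well apart, and replicate 1 was the lowest library of each. The log2 fold change was 0.65 ± 0.12 (SE, edgeR adjusted p = 0.0156), or 1.57-fold, and it did not pass without non-treated replicate 1 (adjusted p = 0.0719) and not without 6j replicate 2 (0.0854). The near-identical paralog MAP1LC3B2, with which reads could be shared, was at 2.68 ± 0.346 and 2.96 ± 0.666 CPM (SD, n = 3 each). GABARAP was at 149, 158 and 176 CPM in non-treated and 191, 196 and 210.0 CPM in 6j treated cells. Its groups did not overlap, and its log2 fold change of 0.31 had an adjusted p of 0.059 in edgeR, 0.02 in DESeq2 and 0.00317 with the block. GABARAPL1 was at 141, 153 and 115 CPM in non-treated and 165, 164 and 128 CPM in 6j treated cells, and GABARAPL2 at 45.0, 47.9 and 50.2 against 49.1, 44.7 and 53.3 CPM. The groups of both overlapped. GABARAPL1 (0.16, 95% interval −0.14 to 0.46) and GABARAPL2 (0.04, −0.17 to 0.25) did not pass in either fit. MAP1LC3A had 2 counts in non-treated replicate 3 and 0 in the other 5 libraries, where 0 allows up to 3 counts, or 0.0780 to 0.0951 CPM, and it was not tested.

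As a share of the summed CPM per kilobase of exon of the family, MAP1LC3B made up 13.0%, 14.1% and 16.1% in non-treated and 16.8%, 19.8% and 19.3% in 6j treated cells. GABARAP held the largest share in every library, from 38.3% to 42.8%. The share of GABARAPL2 was 19.4% to 20.2% in non-treated and 15.1% to 18.1% in 6j treated cells. These shares rest on merged exon lengths and would shift with other transcript models.

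**Figure D3:**
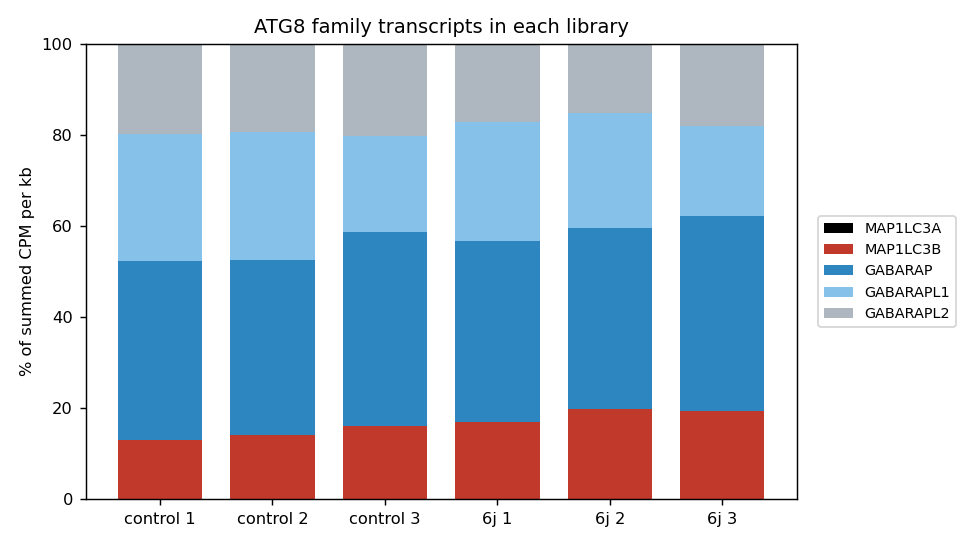
Bars give, for each of the 6 libraries, the percentage of the summed CPM per kilobase of exon taken by each ATG8 family gene. MAP1LC3B (red) takes 13.0% to 16.1% in non-treated and 16.8% to 19.8% in 6j treated cells, and MAP1LC3A is too low to be seen.

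Of the 7 cargo receptors 3 rose (42.9%, against 4.79% of all rows). Their median log2 fold change of 0.63 (0.56 with the block) is the value of BNIP3, which did not pass without the block and lay between 0.21 and 0.93 when 1 library was left out. SQSTM1 (chromosome 5, 179806398 to 179838078) encodes p62, which binds ubiquitinated cargo, and had the highest level per kilobase of the 41 genes in both groups (189.9 and 309.7 CPM). In the libraries it was at 597, 791 and 592 CPM in non-treated and 1048, 1212 and 969 CPM in 6j treated cells. The groups were well apart, and replicate 2 was the highest of each. A log2 fold change of 0.71 ± 0.14 (SE, edgeR adjusted p = 0.0173), or 1.63-fold, was fitted. It did not pass without non-treated replicate 1 (adjusted p = 0.092) or 3 (0.0588) and not without 6j replicate 2 (0.0854). SQSTM1 shares exon bases with MRNIP on the opposite strand, which was itself higher in 6j treated cells, at a mean of 54.0 against 71.9 CPM (log2 fold change 0.41, adjusted p = 0.0374 in edgeR).

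OPTN encodes optineurin, a receptor for mitochondria and bacteria (chromosome 10, 13099449 to 13138308). It was at 47.2, 58.8 and 43.1 CPM in non-treated and 66.1, 85.4 and 80.8 CPM in 6j treated cells. The treated libraries were all higher, with a log2 fold change of 0.64 ± 0.14 (SE, edgeR adjusted p = 0.0241). OPTN passed without non-treated replicate 2 or 6j replicate 1, and in the other 4 fits its adjusted p lay between 0.0545 (6j replicate 3 left out) and 0.114 (6j replicate 2 left out). CALCOCO2, the gene for NDP52 (chromosome 17, 48830988 to 48866522), was at 67.4, 79.5 and 67.8 CPM in non-treated and 95.9, 106 and 99.2 CPM in 6j treated cells. All treated libraries were higher, and the log2 fold change of 0.49 ± 0.09 (SE, edgeR adjusted p = 0.015) was under 1.5-fold. It did not pass without non-treated replicate 1 (adjusted p = 0.0861) or 3 (0.0548) and not without 6j replicate 2 (0.0819).

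TAX1BP1, a relative of CALCOCO2, was at 127, 140.1 and 141 CPM in non-treated and 145, 160.2 and 182 CPM in 6j treated cells. The groups did not overlap, and its log2 fold change of 0.26 passed only with the block (edgeR adjusted p = 0.136 without it and 0.014 with it). NBR1, a receptor built like p62, was at 165, 168 and 177 CPM in non-treated and 162, 181 and 199 CPM in 6j treated cells. Its groups overlapped, and the log2 fold change of 0.09 (95% interval −0.12 to 0.29) did not pass in either fit.

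The mitophagy receptor genes BNIP3 and BNIP3L (NIX) had the largest standard errors of the 40 genes, and their levels differed by replicate number in both groups. BNIP3L (chromosome 8, 26382898 to 26505636) was at 59.5, 69.5 and 90.9 CPM in the non-treated libraries 1, 2 and 3 and 90.7, 139 and 214 CPM in those of 6j treated cells. BNIP3 (chromosome 10, 131966455 to 131982013) was at 66.1, 76.7 and 116 CPM in non-treated and 72.7, 126 and 202 CPM in 6j treated cells. Replicate 3 was the highest and replicate 1 the lowest of each group for both genes, and the groups overlapped. The log2 fold change of BNIP3L was 1.01 (SE 0.35, 95% interval 0.12 to 1.90), the largest of the 40, and that of BNIP3 was 0.63 (SE 0.45). Without the block neither passed (adjusted p = 0.151 and 0.449 in edgeR), except BNIP3L without 6j replicate 1 (adjusted p = 0.0366). With the block both were higher, BNIP3L by 0.95 ± 0.12 (SE, edgeR adjusted p = 0.00152) and BNIP3 by 0.56 ± 0.14 (SE, edgeR adjusted p = 0.0458). Within replicates 1, 2 and 3 the log2 change was 0.61, 1.00 and 1.23 for BNIP3L and 0.14, 0.72 and 0.80 for BNIP3.

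**Figure D4:**
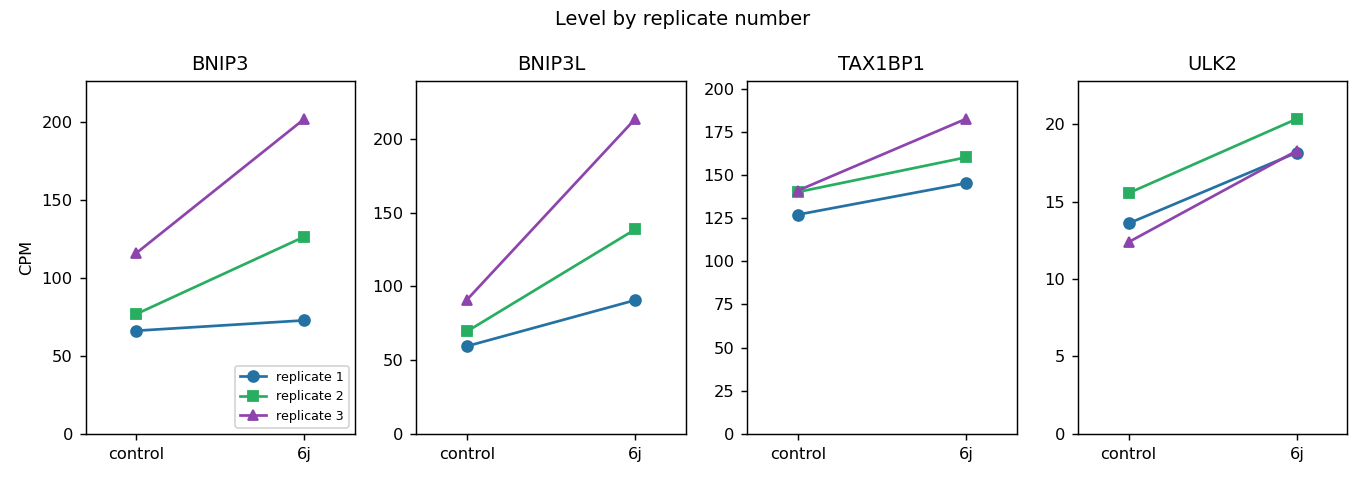
Lines join the non-treated and the 6j treated library of the same replicate number, with the level in CPM on the vertical axis, for 4 genes that passed in the edgeR fit of all 6 libraries with the block and not in that without it. For BNIP3 and BNIP3L replicate 3 lies highest in both groups, and each line goes up.

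The remaining genes serve fusion and transcription. EPG5, a tether between autophagosome and lysosome, was at 57.1, 63.3 and 47.6 CPM in non-treated and 60.5, 84.1 and 71.3 CPM in 6j treated cells. The groups overlapped, and its log2 fold change of 0.36 passed only with the block (edgeR adjusted p = 0.145 without it and 0.0188 with it). STX17, the SNARE of the autophagosome, was at 32.3, 33.6 and 25.1 CPM in non-treated and 32.2, 33.6 and 28.1 CPM in 6j treated cells, with a log2 fold change of 0.05 (95% interval −0.25 to 0.34). FOXO3, a transcription factor gene known to act on autophagy genes (chromosome 6, 108559835 to 108684774), was at 43.8, 47.3 and 51.8 CPM in non-treated and 59.7, 78.6 and 81.5 CPM in 6j treated cells. Its treated libraries were all higher, by a log2 fold change of 0.62 ± 0.13 (SE, edgeR adjusted p = 0.0201), or 1.54-fold. FOXO3 did not pass without non-treated replicate 1 (adjusted p = 0.101) or 2 (0.0619) and not without 6j replicate 2 (0.102).

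The changes of paralogs and partners were compared directly in 5 pairs, as the difference of their log2 CPM in each library. From non-treated to 6j treated cells this difference moved by 0.35 for ULK1 minus ULK2, against an SD of 0.10 within groups. It moved by 0.80 (SD 0.19) for WIPI1 minus WIPI2, by 0.63 (SD 0.25) for SQSTM1 minus NBR1 and by 0.39 (SD 0.12) for BNIP3L minus BNIP3. In these 4 pairs the 3 treated libraries did not overlap with the 3 non-treated ones and the two-sided exact permutation test gave p = 0.1, the smallest value that 3 libraries against 3 allow (adjusted p = 0.125 over the 5 pairs). This permutation test cannot reach the threshold with 3 libraries a group. For GABARAPL1 minus GABARAP the move was −0.15 (SD 0.30, exact permutation p = 0.5), and within replicates 1, 2 and 3 it was −0.12, −0.21 and −0.10. Taken by replicate number, each of the 5 pairs kept its direction in all 3 numbers and the exact permutation test gave p = 0.25, the smallest that 3 pairs allow. For BNIP3L minus BNIP3 the moves within replicates 1, 2 and 3 were 0.47, 0.28 and 0.43.

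Promoters of the autophagy genes were searched for short motifs of factors known to act on stress or autophagy genes. RefSeq (GRCh38.p14) gave 45 start sites for 34 of the 41 genes, including 9 of the 10 that rose but not RB1CC1, and not BNIP3L, and the 250 bases before each start were read on both strands. The 5 motifs were TGATGNAA (core of the element bound by ATF4 with C/EBP proteins), CACGTG (E-box, bound by TFEB and others), GTAAACA (forkhead element), TGACGTCA (cAMP response element) and TGACNNNGC (core of the antioxidant response element). The last 2 motifs both begin with TGAC. TGATGNAA was in the window of 0 of the 34 genes and in 3.14% of all 35116 promoters. Here a gene counts once however many of the 45 start sites it has, while the percentages are of single promoters. CACGTG was found for ATG14, ATG3 and BNIP3 (6.34% of all promoters), GTAAACA for CALCOCO2 (2.98%), TGACGTCA for GABARAPL1 (1.65%) and TGACNNNGC for ATG101, CALCOCO2, FOXO3 and MAP1LC3B (10.9%). The match of FOXO3 was at an alternative start site. A match is a description of the letters and not a binding site. Shown are the windows of 3 genes that rose and of BNIP3, which hold a match, 5′ to 3′ on the strand of the gene, with the match in capitals. They lie at chr14:55411831-55412080 (minus strand), chr16:87392086-87392335 (plus), chr17:48830785-48831034 (plus) and chr10:131981924-131982173 (minus).
ATG14: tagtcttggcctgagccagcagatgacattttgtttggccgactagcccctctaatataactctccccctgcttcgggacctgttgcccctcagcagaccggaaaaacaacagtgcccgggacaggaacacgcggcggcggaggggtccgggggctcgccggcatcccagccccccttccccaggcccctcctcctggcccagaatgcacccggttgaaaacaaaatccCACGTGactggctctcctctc
MAP1LC3B: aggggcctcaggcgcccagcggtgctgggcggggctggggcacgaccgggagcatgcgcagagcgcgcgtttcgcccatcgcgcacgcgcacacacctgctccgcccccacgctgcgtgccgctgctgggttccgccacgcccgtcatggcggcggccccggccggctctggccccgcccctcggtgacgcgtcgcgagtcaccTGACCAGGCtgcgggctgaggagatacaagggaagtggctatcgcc
CALCOCO2: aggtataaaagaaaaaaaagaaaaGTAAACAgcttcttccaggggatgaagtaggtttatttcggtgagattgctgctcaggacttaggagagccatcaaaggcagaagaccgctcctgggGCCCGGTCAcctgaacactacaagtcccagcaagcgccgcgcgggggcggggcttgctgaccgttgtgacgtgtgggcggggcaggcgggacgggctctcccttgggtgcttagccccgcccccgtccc
BNIP3: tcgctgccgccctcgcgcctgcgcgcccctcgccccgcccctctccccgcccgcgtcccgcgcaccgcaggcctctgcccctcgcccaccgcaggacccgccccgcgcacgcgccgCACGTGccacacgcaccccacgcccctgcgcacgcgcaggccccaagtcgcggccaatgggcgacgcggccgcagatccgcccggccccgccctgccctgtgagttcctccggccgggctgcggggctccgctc
The E-box began 21 bases before the start of ATG14 and 134 bases before that of BNIP3. The antioxidant core began 46 bases before the start of MAP1LC3B and 129 bases before that of CALCOCO2, whose forkhead element lay farther upstream, at 226 bases. ATG3, which holds an E-box 18 bases before its start, was at 71.9, 73.0 and 75.4 CPM in non-treated and 72.9, 76.1 and 64.3 CPM in 6j treated cells.

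Further genes of the pathway were taken from a list of 50. Of these, 45 were tested, 8 rose and 1 fell (17.8% and 2.22%, against 4.79% and 4.37% of all rows), and their median log2 fold change was 0.15. With the block 17 were higher and 2 lower (13.1% and 13.9% of all rows were). Of those that could not be tested, RUBCNL had 0 counts in all 6 libraries. PINK1, a kinase that marks damaged mitochondria for mitophagy, was at 109, 104 and 109 CPM in non-treated and 133, 127 and 139 CPM in 6j treated cells. Its groups did not overlap, and its log2 fold change was 0.31 (edgeR adjusted p = 0.0374). It did not pass in any of the 6 fits that left out 1 library, although it did with the block.

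Among other receptors, CCPG1, a receptor for autophagy of the endoplasmic reticulum, was at 209.9, 246 and 189 CPM in non-treated and 352, 379 and 309.5 CPM in 6j treated cells. It rose by a log2 fold change of 0.69 (edgeR adjusted p = 0.0113), while the other reticulum receptor genes RETREG1 (0.09), SEC62 (0.16), RTN3 (0.36), TEX264 (−0.17), ATL3 (0.08) and CALCOCO1 (0.49) did not pass in edgeR without the block and with all libraries. RTN3 and CALCOCO1 passed with the block (adjusted p = 0.00111 and 0.0299), in DESeq2 (0.0145 and 0.0118) and in edgeR without 6j replicate 1 (0.0409 and 0.0352). TOLLIP, an adaptor that binds ubiquitin and ATG8 proteins, rose by 0.61 (edgeR adjusted p = 0.0105). STBD1, the glycogen receptor, was at 11.8, 13.1 and 9.39 CPM in non-treated and 6.38, 7.01 and 4.95 CPM in 6j treated cells. All its treated libraries were lower, and it fell by 0.90 on the log2 scale (edgeR adjusted p = 0.0224), though it shares exon bases with the read-through gene FAM47E-STBD1. CCPG1 shares exon bases with PIGB on the opposite strand.

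C9orf72 and SMCR8, whose products form a complex with WDR41 that acts on ULK1 and the lysosome, rose by log2 fold changes of 0.56 (adjusted p = 0.0116) and 0.64 (edgeR adjusted p = 0.0351). C9orf72 was at 18.6, 19.4 and 17.9 CPM in non-treated and 27.9, 27.3 and 27.2 CPM in 6j treated cells, and the libraries of each group lay close together. The third partner WDR41 gave 0.01 and did not pass. SMCR8 shares exon bases with SHMT1 on the opposite strand. WDR45, the gene for the lipid reader WIPI4 (which shares exon bases with PRAF2), rose by 0.41 (edgeR adjusted p = 0.0121) and TMEM41B, a scramblase gene of the endoplasmic reticulum, by 0.42 (edgeR adjusted p = 0.0323), whereas VMP1, its relative, gave −0.14. Of the 12 fusion partners 0 were called in edgeR and 1, VPS41, in DESeq2 (adjusted p = 0.0492), while 2, PLEKHM1 and VPS41, passed at an unadjusted p under 0.05 (16.7%, against 26.2% of all rows) and with the block. With either non-treated replicate 1 or 6j replicate 2 left out, 0 of these other pathway genes were called (0.852% and 0.933% of all rows were higher).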

How the data were processed

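Polyadenylated RNA of MHCC-97H cells was sequenced in 3 libraries of non-treated and 3 of 6j treated cells. For each gene and library the authors deposited a whole-number count that was not normalized, and the submitters' processing notes name HISAT2, StringTie and GRCh38 without versions. The counting program and its use of strand are not given in the sources used here. All 41 symbols were found once, and the 25445 rows include 5471 genes assembled by the authors without a public identifier.

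The counts were tested with edgeR 4.0.16 (quasi-likelihood F-test, TMM normalization, 6 libraries, no covariate) in R 4.3.3 after a filter on low counts (minimum count 10, filterByExpr), which kept 15957 rows, and p-values were adjusted over these rows by Benjamini and Hochberg. CPM were computed from TMM-normalized library sizes, and CPM per kilobase from merged exons of GENCODE version 29, whose GRCh38 positions are printed. The scripts were tested on simulated data.

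The deviations of same-numbered libraries from their group means correlated at 0.171, 0.18 and 0.312, and those of different numbers at −0.231 to 0.0795. These correlations are weak, and deviations within a group cancel, so the values are not independent of each other. They do not settle whether the numbers pair the libraries. What a shared number stands for is not given in the labels. Alternatives were a replicate block, DESeq2 1.42.0, RLE normalization, other filters, Ensembl genes only and leaving out each library. No pair of libraries of a group agreed within sampling noise (chi-square per degree of freedom 22.3 to 62.6). Intervals of fold changes come from the replicate spread, and the limit for a count of 0 (3 counts) covers counting error only.

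The 41 genes, the 50 further genes and the motifs were chosen with earlier results of these data known. All 41 genes are accounted for, those that passed a test are described with their values, and of the further genes the 8 with the smallest p among those that passed are named with values, while the partners and relatives beside them were added after their values were seen.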

Additional observations from a re-analysis of the deposited data

How the results depend on the processing

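The count of autophagy genes that passed was 10 to 12 under RLE normalization, no filter, a filter at 1 CPM, Ensembl genes only and DESeq2, with the 10 genes shared in each. With the replicate block it was 20 (19 higher and 1 lower), the 10 shared among them, and leaving out 1 library gave 3 to 12. Calls with a fold above 1.5 numbered 7, and 3 to 9 when 1 library was left out. Over all rows the DEGs were 574, with the replicate block 1033, and 186 to 772 when 1 library was left out. Of the other pathway genes 9 passed, against 15 in DESeq2, 19 with the replicate block and 0 to 13 without 1 library. The median log2 fold change of the 40 genes was 0.18 to 0.24 without 1 library. The sign was not fixed where 1 library was left out for WIPI2 (−0.00597 to 0.0691), ATG3 (−0.10 to 0.0209), ATG4C (−0.15 to 0.0172), ATG5 (−0.0574 to 0.0111), GABARAPL2 (−0.0247 to 0.10), STX17 (−0.0738 to 0.12) and the difference of GABARAPL1 and GABARAP (−0.33 to 0.0127). The causes were not tested. The tested genes had at least 290 counts in a library, whereas MAP1LC3A could not be judged. With 3 libraries a group, leaving out 1 leaves 2, so a lost call does not show a smaller change.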
